A study of Homo sapiens with 2 samples.

Results

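The HOX genes are homeobox transcription factors arranged in 4 chromosomal clusters, A to D, and all 39 rows of the deposited matrix named HOX followed by A, B, C or D and a number were taken, of 36601 genes. HOXA held 11 of them, HOXB 10, HOXC 9 and HOXD 9. Selection was by name only and used no measured value. The data were droplet-based single-cell RNA counts from 6 breast cancer cell lines, in 2 pools of 3 lines each, in which every line carried a lipid-anchored multiplexing oligo. BT-474 and MDA-MB-453 are luminal lines with HER2 alterations, and MDA-MB-231, HCC38, Hs578T and MDA-MB-436 are triple-negative lines. All lines were untreated as far as the labels say, and each was 1 culture in 1 pool, so there are no replicates and no test between lines was made.

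HOX proteins bind DNA together with PBX and MEIS partners and give cells their position along the body axis. Within a cluster, genes are numbered 1 to 13 in their order on the chromosome. Genes of the same number in different clusters are paralogues, descended from 1 ancestral gene. In development, low numbers are used towards the head and high numbers towards the tail, and Polycomb and Trithorax proteins keep the clusters silent or active in adult cells. In mammary epithelium and breast cancer, HOXA5, HOXB7, HOXB13 and HOXC10 have been studied.

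The barcode suffixes, 1 to 6, each went with a single top oligo. Since the link from oligo to line is not in the labels, each suffix group was named after the line of its own pool whose markers it led. The BT-474-like group led 11 of 11 markers but also 2 of the MDA-MB-453 list (ALOX15B and DHRS2). MDA-MB-231-like barcodes led 4 of 8, MDA-MB-453-like barcodes 4 of 8, HCC38-like barcodes 5 of 8 and Hs578T-like barcodes 8 of 8, with KRT17 of the HCC38 list also highest in the latter (100.3 CPM against 5.64 in HCC38-like). The MDA-MB-436-like name rests on 3 markers (UCHL1, PRAME and CDKN2A) and on RB1 at 5.03 CPM, against 33.1 to 81.2 CPM elsewhere. MMP1, of the MDA-MB-231 list, was among its 10 leading genes at 38.2 CPM. The labels do not link suffixes to captures either. Suffixes 1 to 3 (BT-474-like, MDA-MB-231-like and MDA-MB-453-like) were taken as capture 1, and suffixes 4 to 6 as capture 2. Each capture was matched to a pool by markers. Of the markers of the BT-474, MDA-MB-453 and MDA-MB-231 pool, 25 of 27 were highest in capture 1. Of those of the other pool, 18 of 19 were highest in capture 2. After removal of barcodes with more than 20% mitochondrial UMIs, 15547 of 17605 barcodes stayed, between 1989 and 3451 per group, with 70.0 to 96.6 M gene UMIs per group. Between the captures 22 barcode sequences were shared, and within a capture 0.

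Levels are UMIs of a gene summed over a group's barcodes, scaled to 1000000 gene UMIs of that group (CPM). The 3′ kit tags 1 end of each molecule, so levels of different genes were compared without a length correction. Intervals in parentheses are exact 95% intervals of counting error and cover no variation between cultures. HOX counts varied between barcodes somewhat more than counting alone gives. Over the 46 combinations of a gene and a group at 10 CPM or more, the variance of counts given depth was 1.07 to 2.29 times the Poisson value, with a median of 1.35.

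Of the 39 HOX genes, 37 had at least 1 UMI. HOXB1 and HOXD12 had none. A level of 5 CPM, used as the mark of expression, was reached by 25 of 39 in at least 1 group, against 34.8% of all genes. The other 14 stayed under it everywhere, HOXA11 being nearest at 4.52 CPM in Hs578T-like barcodes, while the lowest maximum above it was HOXD8 at 6.38 CPM. No HOX gene reached 5 CPM in all 6 groups. Being at 5 CPM in some groups and not in others was thus the pattern of 25 of 25 expressed HOX genes, where 41.7% of all genes expressed in at least 1 group had it. HOXC6, HOXC8 and HOXC9 were at 5 CPM in 5 groups, and 7 genes in 1 group only.

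HCC38-like barcodes expressed the most HOX genes. At 5 CPM or more they had 17 of 39 (28.5% of all genes), Hs578T-like 13 (27.1%), MDA-MB-436-like 12 (27.4%), BT-474-like 9 (26.2%), MDA-MB-453-like 8 (26.1%) and MDA-MB-231-like 1 (26.7%). Summed over all members, the level was 573.3 CPM in HCC38-like, 470.1 in BT-474-like, 404.9 in MDA-MB-453-like, 230.9 in Hs578T-like, 198.4 in MDA-MB-436-like and 32.0 in MDA-MB-231-like barcodes. With every barcode thinned to 10000 UMIs, the share with no HOX UMI was 78.2% in the MDA-MB-231-like group and 0.97% to 16.5% in the others (53.6% and 0.18% to 4.21% without thinning). The median number of HOX genes seen per thinned barcode was 4 in HCC38-like, 3 in MDA-MB-453-like and BT-474-like, 2 in Hs578T-like and MDA-MB-436-like, and 0 in MDA-MB-231-like barcodes.

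**Figure D1:**
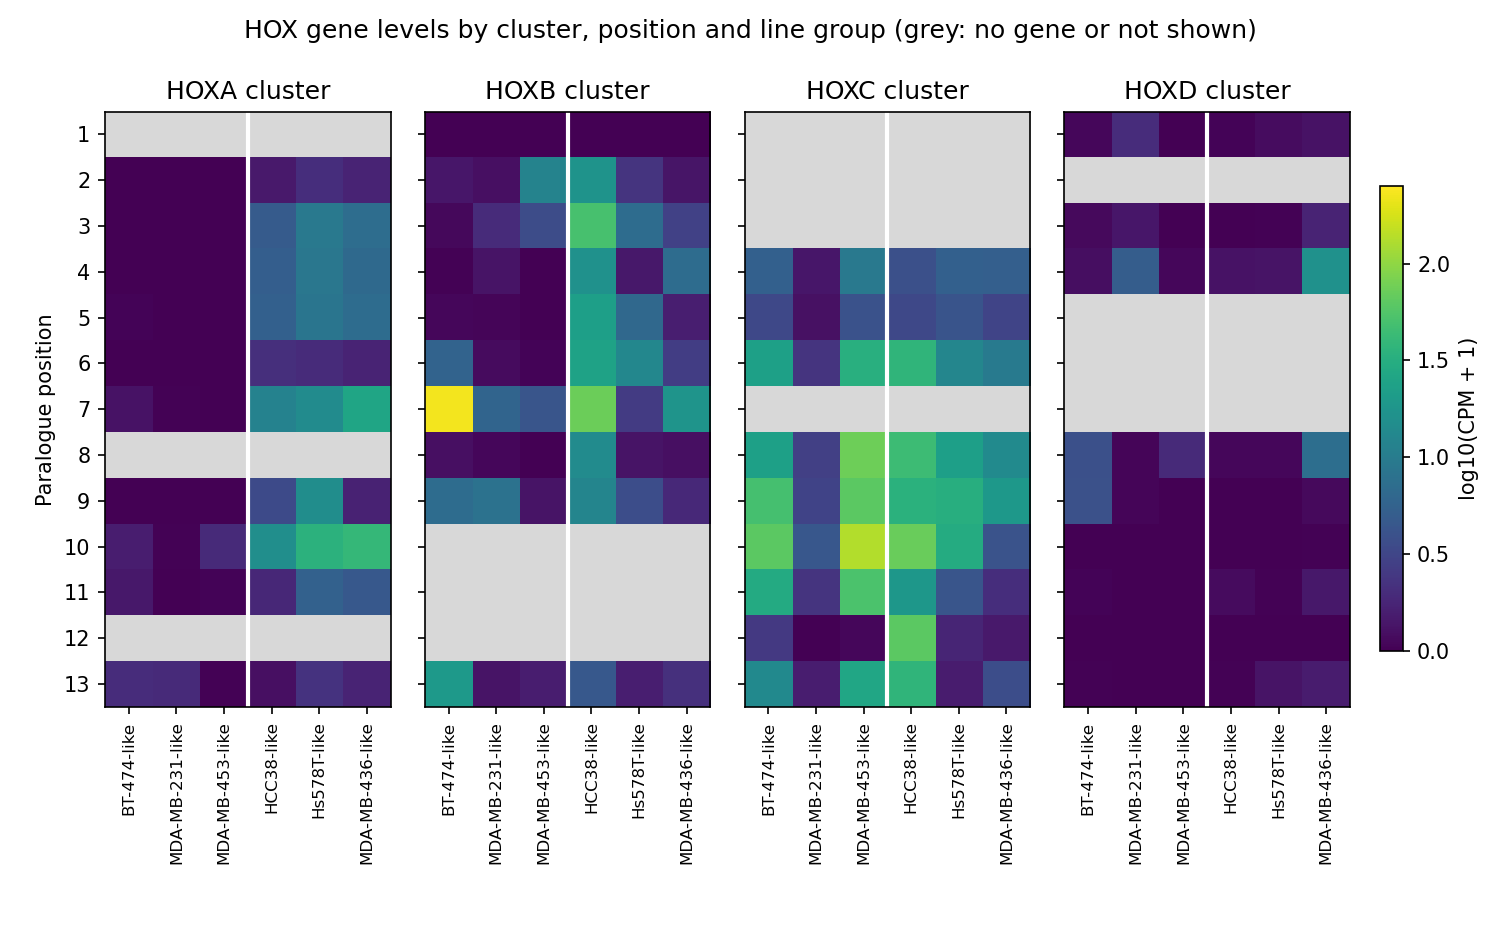
Level of the HOX genes, as log10(CPM + 1), by paralogue position (rows) and group (columns) in the 4 clusters, with the white line between captures 1 and 2 and grey where a cluster has no gene of that number or it is not shown. HOXA is dark in all 3 groups of capture 1, HOXB is filled in HCC38-like barcodes, and HOXC has at least 3 genes at 5 CPM in every group but MDA-MB-231-like.

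The clusters differed in which groups used them. Summed HOXA levels were 44.8 CPM in HCC38-like, 94.6 in Hs578T-like and 91.2 in MDA-MB-436-like barcodes, and 2.33, 1.01 and 1.03 CPM in BT-474-like, MDA-MB-231-like and MDA-MB-453-like barcodes. HOXB was led by BT-474-like (259 CPM) and HCC38-like barcodes (226 CPM), the other 4 groups lying between 14.1 and 30.4 CPM. HOXC was led by MDA-MB-453-like barcodes at 385 CPM, followed by HCC38-like at 302, BT-474-like at 202, Hs578T-like at 105, MDA-MB-436-like at 53.7 and MDA-MB-231-like at 11.2 CPM. HOXD was at 24.05 CPM in MDA-MB-436-like barcodes and at most 6.34 CPM elsewhere, the lowest of the 4 clusters in each group of capture 2. In each group of capture 1 the lowest was HOXA. In MDA-MB-453-like barcodes, though, HOXA (1.03 CPM, 0.81 to 1.28) and HOXD (1.05 CPM, 0.84 to 1.31) had overlapping intervals. Only HCC38-like, Hs578T-like and MDA-MB-436-like barcodes had summed levels of 10 CPM or more in each of HOXA, HOXB and HOXC, and MDA-MB-436-like barcodes had this for HOXD as well.

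**Figure D2:**
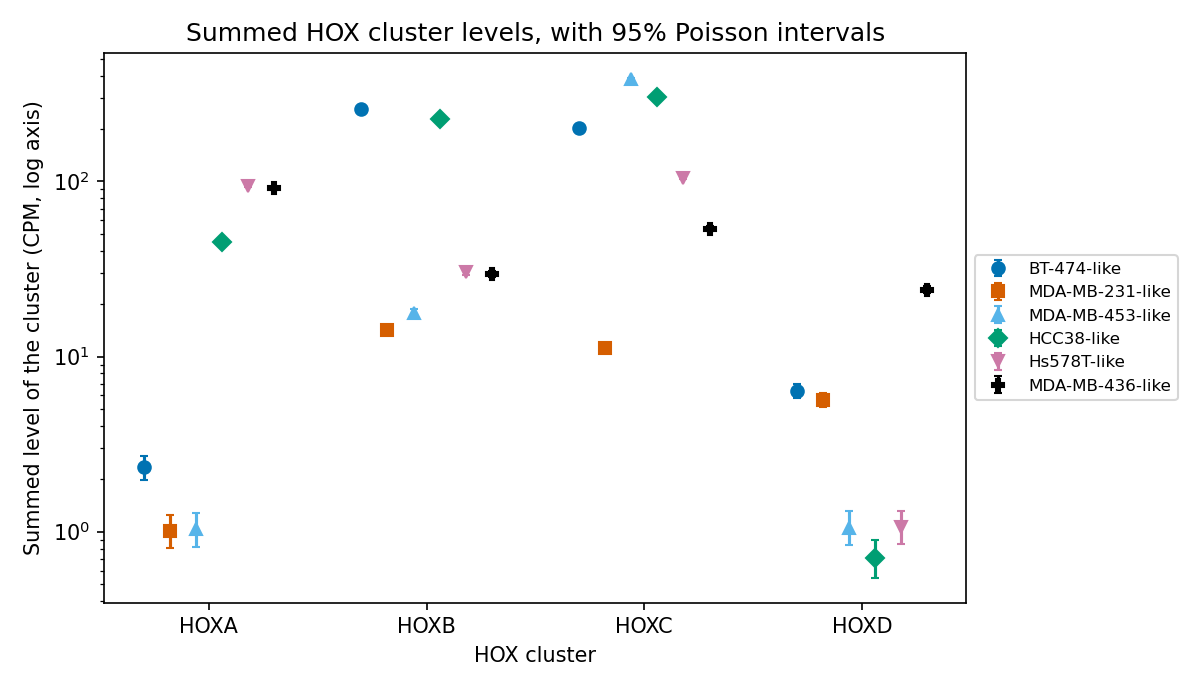
Summed level of each HOX cluster in each group (CPM, log axis), with 95% Poisson intervals as bars, often smaller than the symbol. The 3 groups of capture 2 lie at 44.8 to 94.6 CPM for HOXA and the 3 of capture 1 at 1.01 to 2.33 CPM.

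HOXA lies on chromosome 7 (GRCh38, 27092993 to 27200106). Of its 11 genes, 6 reached 5 CPM, all in capture 2 only. HOXA10, a posterior gene known from uterine and blood cell development, was the leading gene of the cluster in all 3 groups of capture 2. It was at 38.7 CPM in MDA-MB-436-like (37.3 to 40.1), 33.6 in Hs578T-like and 14.3 in HCC38-like barcodes, and at 0.54, 0.04 and 0.91 CPM in BT-474-like, MDA-MB-231-like and MDA-MB-453-like barcodes. MDA-MB-436-like barcodes exceeded Hs578T-like ones only 1.15-fold (1.09 to 1.21). HOXA7 was highest in MDA-MB-436-like barcodes at 24.8 CPM, with 13.3 in Hs578T-like and 10.6 in HCC38-like barcodes, and at most 0.30 CPM in capture 1. In HCC38-like barcodes HOXA10 and HOXA7 stood at 37.1% and 42.7% of their highest level within the capture. Markers of MDA-MB-436 had 1.73% to 83.0% of their own level in HCC38-like barcodes (median 40.8%), and those of Hs578T 3.08% to 23.2% (median 7.32%). The part of RNA from the other lines in these HOXA levels was not tested. Summed HOXA in HCC38-like barcodes was 43.4 CPM without those with a second oligo above 10%, against 44.8 CPM with them.

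HOXA9, a gene of blood stem cells that is often active in leukaemia, broke this order. Its level was 14.1 CPM in Hs578T-like barcodes, 2.47 in HCC38-like and 0.71 in MDA-MB-436-like ones, and 0.01 CPM or less in capture 1. MDA-MB-436-like barcodes thus had little HOXA9 between its neighbours HOXA7 and HOXA10, both of which were highest there. The ratio of Hs578T-like to HCC38-like barcodes was 5.69 (4.94 to 6.56).

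The anterior genes HOXA3, HOXA4 and HOXA5 had the same order of groups. HOXA3 was at 8.27 CPM in Hs578T-like, 6.15 in MDA-MB-436-like and 3.90 in HCC38-like barcodes. HOXA4 was at 7.95, 5.57 and 4.24 CPM in those groups. HOXA5, studied as a growth-restraining factor of breast epithelium, was at 7.61, 6.06 and 4.43 CPM. Capture 1 had 0 UMIs of HOXA3 and HOXA4 in each of its groups, which allows at most 0.0428 CPM (3 counts) in its shallowest group, and at most 0.06 CPM of HOXA5. Over the whole cluster, 5 HOXA genes had no UMI in capture 1 and the other 6 were at most at 1.00 CPM there, HOXA13 in BT-474-like barcodes. All 3 groups of capture 2 lay above all 3 of capture 1 for 6 of the 20 HOX genes at 10 CPM or more in some group, against 10.2% of all such genes. These were HOXA7, HOXA9, HOXA10, HOXB4, HOXB5 and HOXB8, and the reverse held for 0 of 20 (5.38%). Without barcodes whose second oligo held over 10% of oligo counts, the number was 4, HOXB4 and HOXB8 no longer having the pattern. No share of all genes is given for that setting. With all barcodes, HOXB4 had the pattern at 0.433 CPM in Hs578T-like against 0.328 CPM in MDA-MB-231-like barcodes. HOXB8 had it at 0.253 CPM in MDA-MB-436-like against 0.243 CPM in BT-474-like barcodes. Capture, pool and line cannot be told apart in this contrast.

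For 4 of the genes at 10 CPM or more, the RefSeq promoter table (GRCh38.p14) had an entry, and the 250 bases before the start are given, since these are the HOXA and HOXD genes with the highest levels. They read 5′ to 3′ on the gene's strand, with capitals marking CCAAT or TATAAA, on either strand. HOXA7, HOXA9 and HOXA10 are on the minus strand and HOXD4 on the plus strand, and for HOXA10 the start nearer HOXA9, of the 2 in the table, is shown.
HOXA7, chr7:27156676-27156925: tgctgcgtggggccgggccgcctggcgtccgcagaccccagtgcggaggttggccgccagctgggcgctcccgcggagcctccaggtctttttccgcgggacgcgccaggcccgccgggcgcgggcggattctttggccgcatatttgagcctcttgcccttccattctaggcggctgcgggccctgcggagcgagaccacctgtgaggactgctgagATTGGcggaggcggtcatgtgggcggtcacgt
HOXA9, chr7:27165538-27165787: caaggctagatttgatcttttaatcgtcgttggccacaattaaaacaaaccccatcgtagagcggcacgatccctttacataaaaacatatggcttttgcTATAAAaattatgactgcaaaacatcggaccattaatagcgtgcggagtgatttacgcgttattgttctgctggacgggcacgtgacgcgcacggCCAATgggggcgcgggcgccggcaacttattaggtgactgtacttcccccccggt
HOXA10, chr7:27174321-27174570: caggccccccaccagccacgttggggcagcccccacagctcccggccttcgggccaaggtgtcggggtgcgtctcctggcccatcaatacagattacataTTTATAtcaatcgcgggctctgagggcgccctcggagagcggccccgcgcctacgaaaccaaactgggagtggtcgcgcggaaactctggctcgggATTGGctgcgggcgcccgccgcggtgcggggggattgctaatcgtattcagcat
HOXD4, chr2:176151300-176151549: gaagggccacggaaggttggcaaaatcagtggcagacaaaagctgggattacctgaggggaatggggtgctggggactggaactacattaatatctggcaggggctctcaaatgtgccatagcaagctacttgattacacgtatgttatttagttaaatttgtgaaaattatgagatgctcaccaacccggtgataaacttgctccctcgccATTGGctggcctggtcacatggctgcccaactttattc
The HOXA7 stretch held 28 CpG pairs, that of HOXA10 24, that of HOXA9 20 and that of HOXD4 4. Entries were found for 20 HOX genes (26 distinct stretches), and 19 genes had none. Of the 26, 16 were of HOXA, several of these of HOXA3, 8 of HOXD, and 1 each of HOXB and HOXC. The bases after the start lay in an annotated transcript of the gene for 14 of 27 entries. Which entries these were is not given. The printed stretches of HOXA7, HOXA9, HOXA10 and HOXD4 all lie inside the GENCODE 29 bounds of their genes. The median was 19.5 CpG in these 26 stretches and 11 in all 34788 promoters of the table. CCAAT was in 17 of 26, against 32.0% of all promoters, TATAAA in 5 of 26, against 10.8%, and the HOX-PBX motif TGATTNAT in 2 of 26, against 2.48%, each on both strands. A match is a description of letters only.

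HOXB lies on chromosome 17 (48528526 to 48729178), and 9 of its 10 genes reached 10 CPM in some group. HCC38-like barcodes expressed 8 of the 10, every gene from HOXB2 to HOXB9. HOXB7, a gene studied for its part in breast cancer growth and invasion, was the highest HOX value of the data at 229 CPM in BT-474-like barcodes (225 to 233). It was at 71.5 CPM in HCC38-like, 16.6 in MDA-MB-436-like, 4.95 in MDA-MB-231-like, 3.28 in MDA-MB-453-like and 1.59 in Hs578T-like barcodes. BT-474-like barcodes exceeded HCC38-like ones 3.20-fold (3.11 to 3.29). HOXB7 made up 88.4% of all HOXB UMIs in BT-474-like barcodes, and a UMI of it was found in 85.8% of them after thinning (84.3% to 87.2%) and in 98.0% before. In MDA-MB-453-like barcodes, whose HOXB7 level was 1.43% of the BT-474-like one, the shares were 2.11% and 4.38%. Median depths in these groups were 28472 and 20306 UMIs, and BT-474 markers had 1.69% to 34.5% of their own level in MDA-MB-453-like barcodes (median 3.77%). HOXB7 was at 1.94 CPM in MDA-MB-453-like barcodes without those with a second oligo above 10%, and at 48.1 CPM in those. The part of carried-over RNA in the HOXB7 level of MDA-MB-453-like barcodes was not tested. The nearby HOXB5 and HOXB8 were at 0.10 and 0.24 CPM in BT-474-like barcodes, and HOXB6 at 4.78 CPM.

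HOXB13, the most posterior gene of the cluster and a marker of prostate tissue, was also highest in BT-474-like barcodes. It was at 18.4 CPM there, at 3.62 in HCC38-like, 1.15 in MDA-MB-436-like, 0.59 in Hs578T-like, 0.57 in MDA-MB-453-like and 0.33 CPM in MDA-MB-231-like barcodes, a ratio to the next group of 5.08 (4.51 to 5.74). HOXB9 was the only HOX gene at 5 CPM in MDA-MB-231-like barcodes, at 6.96 CPM (6.41 to 7.54), beside 11.5 in HCC38-like, 5.997 in BT-474-like, 2.69 in Hs578T-like, 0.90 in MDA-MB-436-like and 0.34 in MDA-MB-453-like barcodes.

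HOXB3, HOXB5, HOXB6 and HOXB8 were highest in HCC38-like barcodes, and of these HOXB8 alone was under 5 CPM in all other groups. HOXB8 was at 13.5 CPM there and at most 0.34 CPM elsewhere, a ratio of 40.0 (27.5 to 60.4). HOXB3 was at 49.7 CPM, with 5.99 in Hs578T-like, 2.58 in MDA-MB-453-like, 1.88 in MDA-MB-436-like, 0.96 in MDA-MB-231-like and 0.11 in BT-474-like barcodes. HOXB5 was at 21.6 CPM in HCC38-like and 5.42 in Hs578T-like barcodes, and at most 0.59 CPM elsewhere. HOXB6 was at 23.2 CPM in HCC38-like, 12.02 in Hs578T-like, 4.78 in BT-474-like and 1.73 in MDA-MB-436-like barcodes, and at 0.18 or less in the other two.

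The anterior HOXB2 and HOXB4 had other second groups. HOXB2 was at 16.0 CPM in HCC38-like and 11.0 in MDA-MB-453-like barcodes, where it made up 61.6% of the HOXB UMIs, and at most 1.29 CPM elsewhere. HOXB4, a factor of blood stem cell expansion, was at 15.5 CPM in HCC38-like and 6.05 in MDA-MB-436-like barcodes, and at most 0.43 CPM elsewhere. The next group after HCC38-like was Hs578T-like for HOXB3, HOXB5, HOXB6 and HOXB8, MDA-MB-453-like for HOXB2, MDA-MB-436-like for HOXB4 and MDA-MB-231-like for HOXB9.

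**Figure D3:**
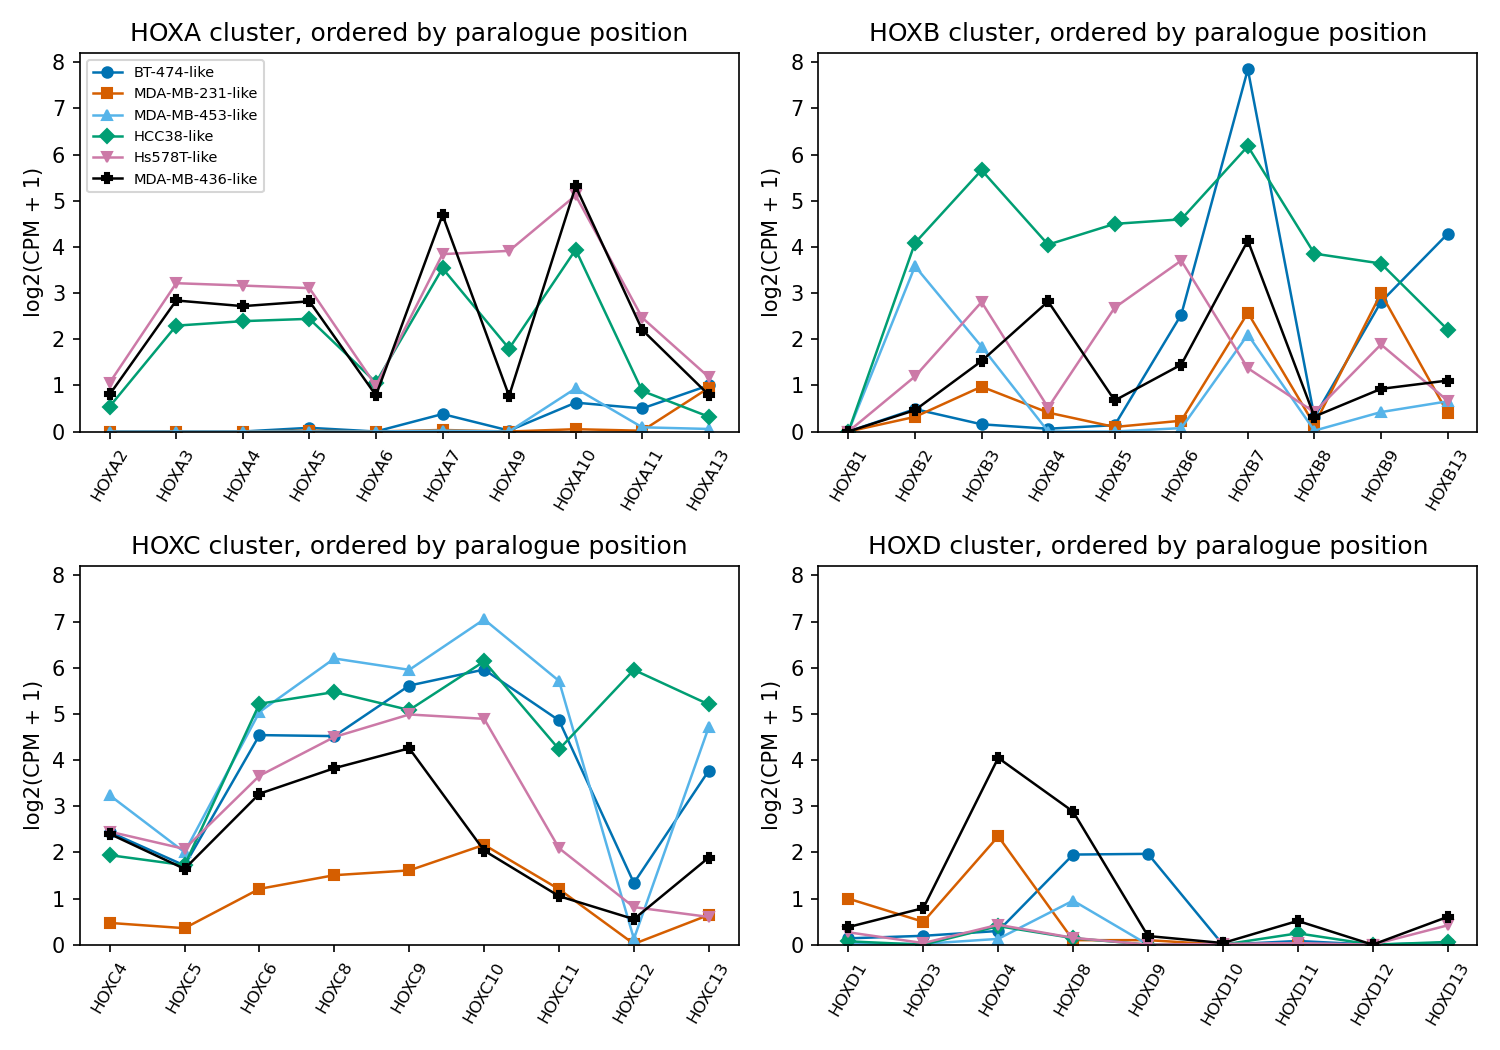
Level of the HOX genes, as log2(CPM + 1), along paralogue position in each cluster, with 1 line per group. HOXB7 peaks in BT-474-like barcodes at 229 CPM, the HCC38-like line stays high from HOXB2 to HOXB9, and HOXC12 stands high in HCC38-like barcodes only, at 61.0 CPM.

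HOXC lies on chromosome 12 (53938765 to 54056030) and was the cluster most widely used. HOXC10, a posterior gene active in limb and motor neurons, was the leading gene in 4 of 6 groups. It was at 131 CPM in MDA-MB-453-like, 69.4 in HCC38-like, 61.3 in BT-474-like, 28.7 in Hs578T-like, 3.48 in MDA-MB-231-like and 3.11 in MDA-MB-436-like barcodes. HOXC9 led in the other two, Hs578T-like and MDA-MB-436-like. Its levels were 61.0 CPM in MDA-MB-453-like, 48.0 in BT-474-like, 32.9 in HCC38-like, 30.7 in Hs578T-like, 18.1 in MDA-MB-436-like and 2.05 in MDA-MB-231-like barcodes, so MDA-MB-436-like barcodes kept HOXC9 but had little HOXC10.

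HOXC8 was at 72.5 CPM in MDA-MB-453-like, 43.4 in HCC38-like, 21.9 in BT-474-like, 21.6 in Hs578T-like, 13.2 in MDA-MB-436-like and 1.84 in MDA-MB-231-like barcodes. Its BT-474-like and Hs578T-like levels had a ratio of 1.01 (0.946 to 1.09), so the interval of counting error held 1. HOXC6, known as a marker of prostate cancer, was at 36.3 CPM in HCC38-like, 31.9 in MDA-MB-453-like, 22.3 in BT-474-like, 11.6 in Hs578T-like, 8.65 in MDA-MB-436-like and 1.31 in MDA-MB-231-like barcodes. HOXC4 was at 8.43 CPM in MDA-MB-453-like barcodes and at 0.39 to 4.46 CPM in the others.

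The posterior end of HOXC separated the groups more. HOXC11 was at 51.5 CPM in MDA-MB-453-like, 28.0 in BT-474-like and 17.8 in HCC38-like barcodes, and at 3.26, 1.30 and 1.07 CPM in Hs578T-like, MDA-MB-231-like and MDA-MB-436-like barcodes. HOXC13, a hair follicle gene, was at 35.9 CPM in HCC38-like, 25.3 in MDA-MB-453-like and 12.7 in BT-474-like barcodes, and at 0.52 to 2.70 CPM in the other 3. HOXC12 was at 61.0 CPM in HCC38-like barcodes and at 1.53 in BT-474-like, 0.76 in Hs578T-like, 0.47 in MDA-MB-436-like, 0.09 in MDA-MB-453-like and 0.01 in MDA-MB-231-like barcodes. MDA-MB-453-like barcodes thus had HOXC11 and HOXC13 without the gene between them, and the ratio of HCC38-like to BT-474-like barcodes was 39.9 (33.0 to 48.8). HOXC12 also had the largest spread between barcodes of 1 group, 2.29 times the Poisson variance.

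HOXD lies on chromosome 2 (176092891 to 176190907), and 2 of its 9 genes reached 5 CPM, both in MDA-MB-436-like barcodes. HOXD4 was at 15.5 CPM there (14.7 to 16.4), at 4.09 in MDA-MB-231-like barcodes and at most 0.35 CPM elsewhere, a ratio of 3.80 (3.37 to 4.29). HOXD8 was at 6.38 CPM in MDA-MB-436-like, 2.87 in BT-474-like and 0.94 in MDA-MB-453-like barcodes, and at most 0.11 CPM in the others. HOXD9, under 5 CPM throughout, was at 2.91 CPM in BT-474-like barcodes and at most 0.14 CPM elsewhere. The posterior HOXD10 to HOXD13 were at most at 0.52 CPM in every group.

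Against the mean of the other 5 groups, on a scale of CPM + 1, HCC38-like barcodes had 10 of the 20 HOX genes measured at 10 CPM at least 2-fold higher (10.3% of all measured genes) and 1 at least 2-fold lower (13.4%). MDA-MB-453-like barcodes had 6 higher (10.5%) and 13 lower (23.1%). MDA-MB-436-like barcodes had 3 higher (9.52%) and 15 lower (20.1%), Hs578T-like 2 higher (9.65%) and 9 lower (17.4%), and BT-474-like 2 higher (7.37%) and 10 lower (27.1%). MDA-MB-231-like barcodes had 0 higher (6.56%) and 18 lower (17.2%). The median log2 ratio of the 20 genes was 0.96 in HCC38-like and −3.10 in MDA-MB-231-like barcodes, where all measured genes had medians of −0.02 and −0.16. Against the mean of the 2 other groups of the same capture, HCC38-like barcodes had 15 of the 20 higher (14.9%) and 3 lower (13.7%), and MDA-MB-453-like barcodes 8 higher (11.4%) and 5 lower (17.3%). On that scale BT-474-like barcodes had 4 higher (7.47%) and 3 lower (21.3%), MDA-MB-231-like 1 higher (18%) and 10 lower (16.2%), Hs578T-like 1 higher (9.74%) and 10 lower (15.7%), and MDA-MB-436-like 1 higher (9.72%) and 14 lower (19.6%). A highest group at least 4-fold above the next was seen for 5 of 20 HOX genes (6.16% of all measured genes). These were HOXA9 in Hs578T-like, HOXB13 in BT-474-like, and HOXB3, HOXB8 and HOXC12 in HCC38-like barcodes. With a pseudocount of 5 CPM the count was 2. The highest group was at least 4-fold above the lowest for 20 of 20 HOX genes (41.9%).

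The low HOXC level of MDA-MB-231-like barcodes moved with the second oligo of a barcode. HOXC summed to 5.81 CPM in the 2397 barcodes whose second oligo held at most 5% of oligo counts, to 10.5 CPM in the 398 at 5 to 10%, and to 84.3 CPM in the 147 above 10%. Without those 147 barcodes it was 6.43 CPM in place of 11.2. In the MDA-MB-231-like group, markers of BT-474 had 1.75% to 26.3% of their own level (median 2.52%). Those of MDA-MB-453 had 0.96% to 1.76% (median 1.52%). HOXC10 at these medians would be 3.54 CPM, and 3.48 CPM was measured. HOXC9 would be 2.14 CPM, and 2.05 CPM was measured. HOXB7 would be 5.82 CPM, and 4.95 CPM was measured. Without barcodes with a second oligo above 10%, HOXC10 was at 1.67, HOXC9 at 0.99 and HOXB7 at 2.27 CPM. The part of carried-over RNA in these levels was not tested.

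HOXB9 and HOXD4 lay above such estimates. HOXB9 was at 6.96 CPM in MDA-MB-231-like barcodes and at 6.98 CPM without those with a second oligo above 10%, and the level in BT-474-like barcodes was lower, 5.997 CPM. HOXD4 was at 4.09 CPM and at 4.17 CPM without them, with 0.23 CPM in BT-474-like barcodes and 0.09 in MDA-MB-453-like ones. Some genes at lower levels also lay above such estimates. Among them were HOXB3 (0.96 CPM, and 0.99 CPM without those barcodes), HOXD1 (1.00 and 0.92 CPM) and HOXA13 (0.93 and 0.95 CPM). For these genes, HOXB9 and HOXD4 too, the part of carried-over RNA was not tested.

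**Figure D4:**
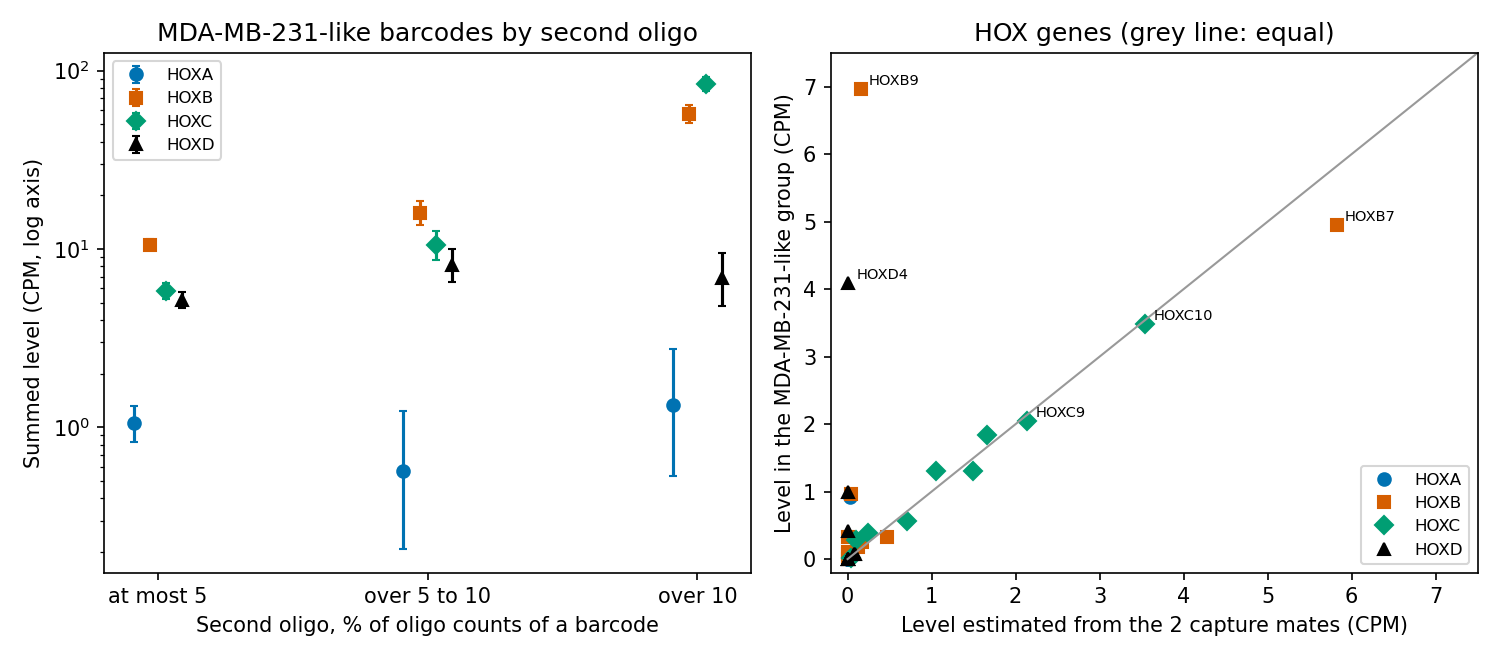
Left, summed level of each HOX cluster (CPM, log axis) in MDA-MB-231-like barcodes by the share of a second oligo, with 95% Poisson intervals. Right, measured level of HOX genes in that group against the level estimated from the 2 other lines of its capture (both CPM): HOXC10, HOXC9 and HOXB7 lie near the line of equality, and HOXB9 (6.96 CPM) and HOXD4 (4.09 CPM) far above it.

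Noncoding RNAs and small genes of the clusters were listed apart (20 genes, 6 measured at 10 CPM). HCC38-like barcodes had 4 of the 6 at least 2-fold higher (10.3% of all measured genes) and 0 lower (13.4%), and MDA-MB-231-like barcodes 0 higher (6.56%) and 6 lower (17.2%). HOXB-AS3 was at 185 CPM in HCC38-like barcodes and at most 3.16 CPM elsewhere. HOTAIRM1, a noncoding RNA of the HOXA cluster, was at 58.0 CPM in Hs578T-like, 28.95 in HCC38-like and 22.3 in MDA-MB-436-like barcodes, and at most 0.11 CPM in capture 1. HOXA10-AS was at 19.9 CPM in HCC38-like and 15.3 in Hs578T-like barcodes and at 0.67 in MDA-MB-436-like ones. HOTAIR, a HOXC RNA studied in breast cancer metastasis, was at 17.7 CPM in HCC38-like, 17.0 in BT-474-like and 4.91 in MDA-MB-453-like barcodes, and at most 0.80 CPM elsewhere. HOTTIP was at most at 0.13 CPM and HAGLR at most at 2.58 CPM. Exons of 19 HOX genes overlap a gene on the opposite strand and those of 8 overlap one on the same strand (GENCODE 29). The use of strand in the counting is not given in the sources used here, so HOXB5 and HOXB6 beside HOXB-AS3, HOXA9 and HOXA10 beside HOXA10-AS, and the shared exons of HOXB3, HOXB4 and HOXB6 and of HOXC4, HOXC6 and HOXC9 leave those levels uncertain.

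Of the listed cofactors, MEIS1 was at most at 5.01 CPM. Of 23 measured Polycomb genes, BT-474-like barcodes had 1 at least 2-fold higher (7.37% of all measured genes) and 6 lower (27.1%), MDA-MB-436-like 2 higher (9.52%) and 6 lower (20.1%), and the other 4 groups at most 2 and 4. EZH2, the methyltransferase that silences HOX clusters, was at 104 CPM in MDA-MB-231-like and 101 in MDA-MB-436-like barcodes, and at 43.8 to 70.3 CPM in the others. PCGF2, a Polycomb gene, was at 247 CPM in BT-474-like barcodes, and the next group was at 42.0 CPM. Of 14 Trithorax and demethylase genes, HCC38-like barcodes had 1 higher (10.3%), PSIP1 at 338 CPM, and 0 lower (13.4%). BT-474-like barcodes had 3 higher (7.37%) and 1 lower (27.1%), and MDA-MB-436-like 0 higher (9.52%) and 3 lower (20.1%). The remaining groups had at most 1 in each direction. KMT2A was at 223 CPM in HCC38-like barcodes and at 88.1 to 160 CPM elsewhere.

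Retinoic acid, a known inducer of anterior HOX genes, was followed through 17 listed genes, 10 of them measured. HCC38-like barcodes had 6 of 10 at least 2-fold higher (10.3% of all measured genes) and 1 lower (13.4%), and no other group had more than 2 higher. DHRS3 was at 44.4 CPM in HCC38-like barcodes and at most 9.85 CPM elsewhere. RARB, a receptor gene, was highest in Hs578T-like barcodes at 23.1 CPM, and ALDH1A1 in BT-474-like ones at 11.8 CPM. Fibroblast and other cell type markers were listed as well (10 genes, 4 measured). They summed to 560 CPM in Hs578T-like barcodes, with ACTA2 at 368 and LUM at 126 CPM, and to 1.64 to 84.8 CPM in the others. Their part in the HOXA levels of Hs578T-like barcodes was not tested.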

How the data were processed

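The deposited matrix holds raw UMI counts per gene and barcode, made by the authors with Cell Ranger 6.1.2, per the file headers, with GRCh38 (hg38) named in the submitters' processing notes. How cells were called, oligos assigned and strand used is not given in the sources used here. All barcodes with at most 20% mitochondrial UMIs were kept, and counts were summed per suffix group and scaled to CPM. Total counts were 70.0 to 96.6 M per group. Expression meant 5 CPM, and fold comparisons used a pseudocount of 1 CPM on genes at 10 CPM in at least 1 group. Intervals are exact Poisson, Clopper-Pearson (shares) or conditional binomial (ratios). With 1 culture per line no test was made. For shares, barcodes were thinned to 10000 UMIs, which left out 16 to 101 per group. Doublets were kept in the main values, and Scrublet calls (scanpy 1.11.5, rate 0.06) were removed as an alternative. Every HOX gene at 5 CPM in at least 1 group is named. From the other lists, standard members and at most 3 genes with the largest ratio to the next group are named. A few genes are not reported here. Members and lists were chosen with earlier results of these data known. Calls and intervals were tried on simulated Poisson counts. Such counts hold no spread beyond counting, so they cannot show how the intervals do under the larger spread measured here. TMM factors came from edgeR 4.0.16, and the scripts ran in Python 3.11.15 with pandas 2.3.3, scipy 1.17.1 and numpy 2.4.6.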

Additional observations from a re-analysis of the deposited data

How the results depend on the processing

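Of 120 combinations of a measured HOX gene and a group, 19 had the opposite sign against the 2 capture mates, and 2 were past 2-fold both ways: HOXB3 in MDA-MB-453-like (log2 −1.83 against the other 5, 1.22 against the mates) and HOXC12 in BT-474-like barcodes (−2.41 and 1.27). MDA-MB-453-like barcodes then had 8 higher and 5 lower, in place of 6 and 13. The number of HOX genes at 5 CPM in MDA-MB-231-like barcodes was 2 with no mitochondrial filter, with TMM scaling and with median-of-ratios scaling. At a level of 2 CPM it was 5, and 14 in BT-474-like barcodes. At 10 CPM it was 0 in MDA-MB-231-like, 8 in Hs578T-like and 6 in MDA-MB-436-like barcodes. With a pseudocount of 5 CPM, genes at least 2-fold lower numbered 5 in BT-474-like, 7 in MDA-MB-453-like, 0 in HCC38-like, 4 in Hs578T-like and 8 in MDA-MB-436-like barcodes, and genes 4-fold above the next group 2. With no filter on low values, over all 39 HOX genes in place of the 20 measured, HCC38-like barcodes had 2 lower, Hs578T-like 6 higher and MDA-MB-436-like 8 higher. Shares of all genes are not given for these other levels, pseudocounts and filters, so the counts cannot be set against all genes. Against the 2 capture mates only, BT-474-like barcodes had 4 higher and 3 lower, MDA-MB-231-like 1 and 10, HCC38-like 3 lower, and Hs578T-like and MDA-MB-436-like 1 higher each. In these settings the cause was not tested. Summed HOXC in MDA-MB-231-like barcodes was 6.60 CPM without Scrublet doublets and 6.43 CPM without barcodes with a second oligo above 10%, the latter chosen after seeing the data, and HOXD in HCC38-like barcodes was 0.42 CPM in place of 0.70. No other cluster sum moved by over 1.5 times. No paired analysis was possible because each line was 1 culture in 1 pool. Depth limits levels under 0.0311 to 0.0428 CPM (3 counts).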

Other observations

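Genes within 500 kb of HOXB were looked up after the HOXB7 level of BT-474-like barcodes had been seen. Of 11 measured neighbours, BT-474-like barcodes had 5 at 2-fold or more above the mean of the other groups (7.37% of all measured genes) and 3 at 2-fold or more below it (27.1%). ATP5MC1, a subunit of ATP synthase, was at 1264 CPM there and at 199 to 460 CPM elsewhere. SNF8 was at 679 CPM against 129 to 295 CPM, CALCOCO2 at 256 against 42.0 to 139 CPM, and UBE2Z at 249 against 38.8 to 93.2 CPM. By comparison, HOXB2 to HOXB5 and HOXB8 were at most at 0.40 CPM in the same barcodes.

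Homeobox genes outside the clusters also marked single groups (39 listed, 25 measured). BARX1 was at 92.5 CPM in HCC38-like barcodes and at most 1.38 CPM elsewhere. EMX2 was at 25.4 CPM in MDA-MB-436-like barcodes and at most 0.47 CPM elsewhere, and MSX1 was at 37.6 CPM there and at most 2.51 CPM elsewhere. MDA-MB-231-like barcodes had 1 of the 25 past 2-fold on the higher side (6.56% of all measured genes) and 15 on the lower (17.2%). The other groups had 2 to 7 on the higher side (7.37% to 10.5%) and 8 to 14 on the lower (13.4% to 27.1%).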
